A study of Mus musculus with 10 samples.

Results

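The genes described here are those whose mouse symbol is Zfp followed by digits (for zinc finger protein), as expressed in the mouse neocortex. The array held 324 such genes, and 229 of them (70.7%) were chosen by their signal, having a probe set whose log2 signal, averaged across the 10 arrays, lay above 6.89, the median of 45037 probe sets. Over the whole array, 11963 of 17876 genes (66.9%) passed this filter. The signals of both ages chose the members together, so their mean level is a description, and the 95 Zfp genes below the filter were not part of the test. Just inside the filter lay Zfp39 and Zfp566, at mean log2 signals of 6.91 and 6.94. The nearest genes outside it were Zfp60, which missed the filter by less than rounding shows at 6.89, and Zfp781 at 6.86.

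The study hybridized neocortex RNA of 10 male mice, each to its own Affymetrix Mouse 430 2.0 array. The old group held 5 mice at 30 months of age and the young group 5 mice at 5 months of age. All were B6xC3 F1 hybrids, housed singly on the control diet AIN-93M, so no other strain, sex or diet stood beside them. The comparison asks which Zfp transcripts differ in amount between old and young adult neocortex. Array medians lay between 114.5 and 122.6 signal units, and the median standard error of a member's log2 change was 0.08, against 0.07 over all genes tested.

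Most Zfp genes encode proteins with arrays of C2H2 zinc fingers, short loops in which paired cysteines and histidines hold a zinc ion and which read DNA or RNA. Many of them also carry a KRAB domain, which recruits the co-repressor Trim28 and with it histone methylation, and is best known for silencing retroelements and imprinted genes. Others, some of which share only the name, act in RNA binding, ribosome assembly, ubiquitin or SUMO transfer, or as ordinary activators of transcription.

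The markers of neocortical tissue passed the filter, with 7 of 7 for excitatory neurons and 5 of 5 for interneurons, and several glial markers differed between the ages. Of the excitatory neuron markers, 2 rose and 2 fell, and 1 of 5 interneuron markers rose. Beside these and the markers below stood 34.0% higher and 12.3% lower over all genes tested. All 5 astrocyte markers rose, with a summed signal of 9988 to 10921 in the 30-month mice against 5992 to 6987 in the 5-month mice. Of 5 microglial markers, 3 rose and 2 fell, with a summed signal of 6121 to 6670 at 30 months against 5105 to 5327 at 5 months. Endothelial markers rose in 2 of 3 tested, oligodendrocyte markers in 2 of 5. The choroid plexus markers Ttr and Clic6 both fell, with sums of 3455 to 11406 in the 30-month mice against 8533 to 11137 in the 5-month mice, and Folr1, Kl and Kcnj13 did not pass the filter. Of the meningeal and striatal markers, 1 of 2 and 1 of 5 tested fell, and the blood marker tested was not called. In whole tissue, fewer cells of a type and less RNA per cell cannot be told apart, and the part of cell composition in the changes below was not tested.

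Zfp transcripts moved in both directions with age. They were called higher more often than lower with the deposited scaling and after quantile normalization, but not with every array set to the same median over the genes tested. In limma, a linear model per gene with moderated variances, at a Benjamini-Hochberg adjusted p under 0.05 over all genes tested, 79 of the 229 members (34.5%) were higher in the 30-month mice and 24 (10.5%) were lower. Over all genes tested the shares were 34.0% higher and 12.3% lower, or 46.3% in either direction. The members' shares were near this background. The other 126 members were not called, and 120 members had an unadjusted p under 0.05. A complete separation of the ages, with every 30-month array above every 5-month array, was found for 56 members (24.5%), and with every 30-month array below, for 10 members (4.37%). The corresponding shares over all genes were 24.5% and 5.75%.

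Few members changed by a large factor. The median log2 change was 0.10 over the members and 0.08 over all genes tested. Members called higher had a median change of 0.30, and members called lower a median of -0.29, against 0.32 and -0.33 over all called genes. A fold change of 1.5 or more was reached by 2 higher members, Zfp64 and Zfp385a, and by 3 lower members, Zfp609, Zfp692 and Zfp414. This is 4.85% of the members called, compared with 12.1% of all called genes. By level, 223 members had a mean above the filter at both ages, 3 at 30 months alone and 3 at 5 months alone. Of those above it at 1 age alone, 3 were called, Zfp64 among them. The filter on the mean of both ages chose the members, so these counts describe that choice.

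**Figure D1:**
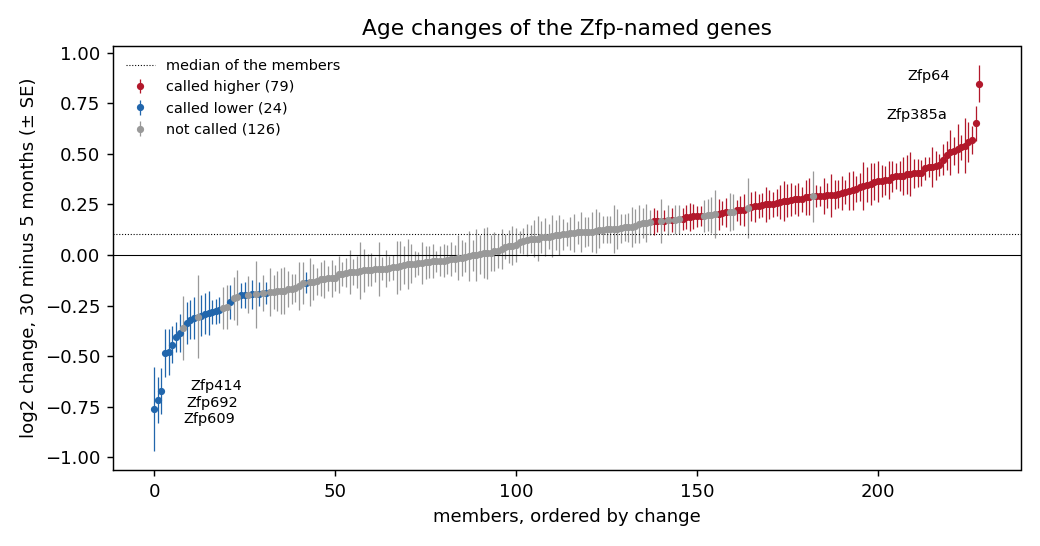
Log2 change of each of the 229 Zfp-named genes, 30 months minus 5 months, ordered from lowest to highest, with the standard error from limma as bars. The 79 members called higher and the 24 called lower lie toward the ends, with Zfp64 highest at 0.85 and Zfp609 lowest at -0.76, and most of the 126 members that were not called lie between them.

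The balance of higher and lower calls moved with the scaling between arrays. With the deposited scaling, 76.7% of the members' calls were higher (73.5% over all genes). After quantile normalization there were 53 higher and 38 lower members, beside 22.9% higher and 20.3% lower over all genes, so that 58.2% of the members' calls were higher, against 53.0% over all genes. With every array set to the same median over the genes tested, a setting chosen after seeing the data, there were 40 higher and 45 lower members, beside 21.2% and 23.9% over all genes. Of the members' calls 47.1% were then higher, against 47.0% over all genes. This scaling moved the median change of all genes by -0.10. With every array set to the same median over all probe sets, the counts moved the other way, to 85 higher and 22 lower members, beside 35.5% and 10.7% over all genes, and 79.4% of the members' calls were higher, against 76.7% over all genes. The members' median change lay above the median of all genes by 0.02 with the deposited scaling and by 0.04 after quantile normalization. Setting medians equal shifts every gene alike and cannot change this difference. Under all 4 scalings 38 of the 79 higher members were called higher, and 22 of the 24 lower members lower. No member was called in opposite directions.

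**Figure D2:**
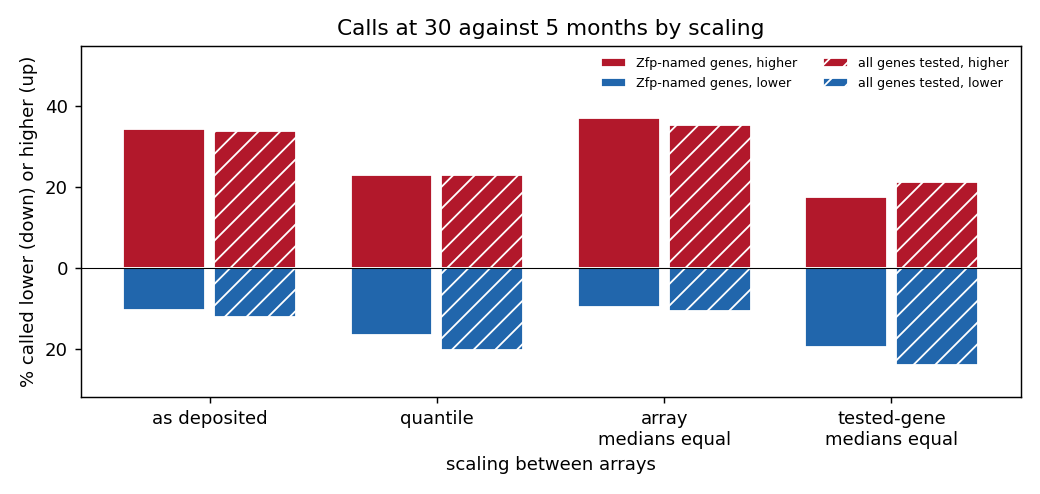
Share of genes called higher (upward bars) and lower (downward bars) at 30 against 5 months under 4 ways of scaling the arrays, for the 229 Zfp-named genes (plain) and all 11963 genes tested (hatched). The members' bars follow those of all genes: 34.5% and 34.0% higher with the deposited scaling, 17.5% and 21.2% with equal medians of the tested genes.

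Among the largest increases without overlap of the ages were proteins of quite different roles. Zfp64, a C2H2 transcription factor, had signals of 198, 178, 155, 196 and 173 in the 30-month mice, against 102, 98.8, 103, 105 and 90.2 in the 5-month mice. Every 30-month array lay above every 5-month array, with a log2 change of 0.85 ± 0.09 (SE), adjusted p = 2.23e-05 in limma. The mean of this probe set lay above the filter at 30 months alone, so the age with the higher signal brought in Zfp64. Another of its probe sets fell without overlap (-0.32, adjusted p = 0.0199), and with its probe sets averaged Zfp64 was not called (0.08, adjusted p = 0.577). Zfp385a, an RNA- and DNA-binding zinc finger protein known in mouse neurons for its part in carrying a transcript into dendrites, had signals of 1084, 966, 899, 1034 and 866 in the 30-month mice, against 643, 570.5, 696, 659 and 523 in the 5-month mice. The groups did not overlap here either, and the change was 0.65 ± 0.09 (SE), adjusted p = 7.84e-05. Zfp532, which in human cells forms a chromatin complex with the products of Zfp592 and Zfp687, had signals of 656, 708, 692, 695 and 715 in the 30-month mice, against 496, 489, 499, 461 and 398 in the 5-month mice. The lowest 30-month value stood well above the highest 5-month one, and the change was 0.57 ± 0.07 (SE), adjusted p = 3.74e-05. Zfp532 rested on 1 of 3 probe sets, and its call was lost when they were averaged (0.13, adjusted p = 0.122). Its complex partners were not called with the deposited scaling, at -0.11, adjusted p = 0.17 for Zfp592 and -0.03, adjusted p = 0.64 for Zfp687. Both were called lower after quantile normalization, at -0.21, adjusted p = 0.0249 for Zfp592 and -0.13, adjusted p = 0.0447 for Zfp687, while another probe set of Zfp592 was called higher (0.36, adjusted p = 0.00666).

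Zfp622, a factor of cytoplasmic assembly of the large ribosomal subunit, had signals of 2457, 2322, 2601, 2334 and 2082 in the 30-month mice, against 1877, 1683, 1613, 1743 and 1464 in the 5-month mice. The ages were separate, and the change was 0.49 ± 0.07 (SE), adjusted p = 0.000145 in limma. Without s_at and x_at probe sets, whose probes can match several transcripts, Zfp622 was not called (0.14, adjusted p = 0.18). Zfp367, described in human erythroid cells as an activator of globin genes, had signals of 699, 656, 605, 672 and 602 in the 30-month mice, against 476, 417, 433, 455 and 451 in the 5-month mice. All of the old mice exceeded all of the young ones, with a change of 0.53 ± 0.06 (SE), adjusted p = 3.25e-05. Zfp219, a partner of Sox9 in mouse cartilage cells, had signals of 573, 551, 409, 499 and 463 in the 30-month mice, against 394, 381, 360.2, 397 and 306 in the 5-month mice. Old mouse 4 came close to the highest young mouse without reaching it, and the change was 0.44 ± 0.10 (SE), adjusted p = 0.00285.

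Zfp287, which carries a SCAN and a KRAB domain, had 381, 398, 419, 387 and 384 in the 30-month mice, against 295, 279, 292, 289 and 291 in the 5-month mice. The spread within each age was small beside the gap between the ages, and the change was 0.44 ± 0.05 (SE), adjusted p = 4.67e-05. Zfp292, a large protein whose gene is linked to neurodevelopmental disorders in people, had signals of 385, 340.3, 387, 373 and 374 in the 30-month mice, against 288, 308, 248, 275 and 251 in the 5-month mice, with a change of 0.44 ± 0.07 (SE), adjusted p = 0.000349. Zfp467, studied in mouse bone marrow stroma, changed by 0.47 ± 0.08 (SE), adjusted p = 0.000317, and Zfp707 by 0.53 ± 0.12 (SE), adjusted p = 0.00327. Zfp1 and Zfp58 changed by 0.56 and 0.52. In each of these 5 genes all of the old arrays exceeded all of the young ones. Without s_at and x_at probe sets Zfp292 and Zfp707 were not called (0.14 and 0.33), and Zfp467 changed by -0.11. Another probe set of Zfp467, also not of this kind, rose without overlap in the limma fit of all tested probe sets (0.42, adjusted p = 0.00146). With its probe sets averaged Zfp467 kept its call (0.26, adjusted p = 0.0115). The other 67 higher members had log2 changes of 0.17 to 0.54.

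Of the lower members without overlap, Zfp692 had the largest decrease. It is described in human cells as an AMPK-responsive repressor of a gluconeogenic gene. Its signals were 2443, 2060.4, 1565, 1699 and 1538 in the 30-month mice, against 2578, 2961, 3097, 3099 and 3370.1 in the 5-month mice, and the change was -0.72 ± 0.12 (SE), adjusted p = 0.000307 in limma. Zfp414 had signals of 2368, 2125, 1997, 1956 and 1553 in the 30-month mice, against 2506, 2935, 3407, 3465 and 3624 in the 5-month mice, with a change of -0.67 ± 0.11 (SE), adjusted p = 0.000413. In Zfp692 and Zfp414 alike, mouse 2 was the highest of the old mice, mouse 6 the lowest, and mouse 1 the lowest of the young mice, so the closest approach of the ages lay between the same 2 arrays. Zfp575 showed the same pair at its closest, with 2464, 2200.0, 2131, 2163 and 1804 in the 30-month mice, against 2544, 2685, 3481, 2840.3 and 3101 in the 5-month mice, and changed by -0.44 ± 0.09 (SE), adjusted p = 0.00146. Over the 24 lower members, mouse 2 was the highest of the old mice in 12 (50.0%) and mouse 6 the lowest in 11 (45.8%). Over all 1466 lower genes the same 2 mice held these places in 53.2% and 48.4%, so the order of the arrays in the lower members was also that of the lower genes as a whole.

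Zfp352, a gene without introns known from the early mouse embryo, had signals of 502, 412, 404, 463 and 413 in the 30-month mice, against 574, 576, 598, 626 and 527 in the 5-month mice. No old array reached the young range, and the change was -0.41 ± 0.07 (SE), adjusted p = 0.000655. Zfp322a, a pluripotency factor of mouse embryonic stem cells, had signals of 695, 699.8, 771, 708 and 638 in the 30-month mice, against 806, 876, 847, 847 and 888 in the 5-month mice. Its ages were separate, with a change of -0.28 ± 0.06 (SE), adjusted p = 0.00171. Zfp598, a ubiquitin ligase that marks collided ribosomes, had signals of 1069.8, 1085, 1125, 999.6 and 1002 in the 30-month mice, against 1155, 1137, 1132, 1223 and 1154 in the 5-month mice. The difference was small and just passed the test, at -0.14 ± 0.05 (SE), adjusted p = 0.0438, and it was lost in 9 of the 10 fits that left out 1 array and with equal array medians (-0.12, adjusted p = 0.0966). Zfp282, Zfp212 and Zfp956 are neighbours in the genome. Zfp282 had signals of 218, 223, 189, 208 and 173 in the 30-month mice, against 227, 252, 242, 314 and 225 in the 5-month mice. Zfp212 had signals of 595, 539, 661, 577 and 594 in the 30-month mice, against 722, 727, 672, 712 and 760.4 in the 5-month mice. Young mouse 4 stood high for Zfp282, and in neither gene did the ages overlap, with changes of -0.31 ± 0.10 SE, adjusted p = 0.0226 for Zfp282 and -0.28 ± 0.06 SE, adjusted p = 0.00263 for Zfp212. Zfp956 had signals of 429, 446, 417, 382 and 406 in the 30-month mice, against 505, 464, 465, 479.6 and 461 in the 5-month mice, without overlap, and changed by -0.19 ± 0.06 (SE), adjusted p = 0.016. Over the 8 mice that share numbers Zfp956 was not called, with adjusted p = 0.122 in a fit with the mouse number as a replicate block and 0.074 without the block. Zfp282 lost its call without young mouse 4 (adjusted p = 0.0545) and without old mouse 6 (adjusted p = 0.0564).

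A further 14 lower members had overlapping ages, with changes of -0.76 to -0.19. Zfp609, which works with the cohesin loader Nipbl in migrating neurons of the mouse cortex, had the largest decrease of all members. Its signals were 249.8, 144, 121, 105 and 119.9 in the 30-month mice, against 179, 204, 283, 295 and 250.2 in the 5-month mice. Old mouse 2 lay within the young range and the other 4 old mice below it, and the change was -0.76 ± 0.21 (SE), adjusted p = 0.00908.

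**Figure D3:**
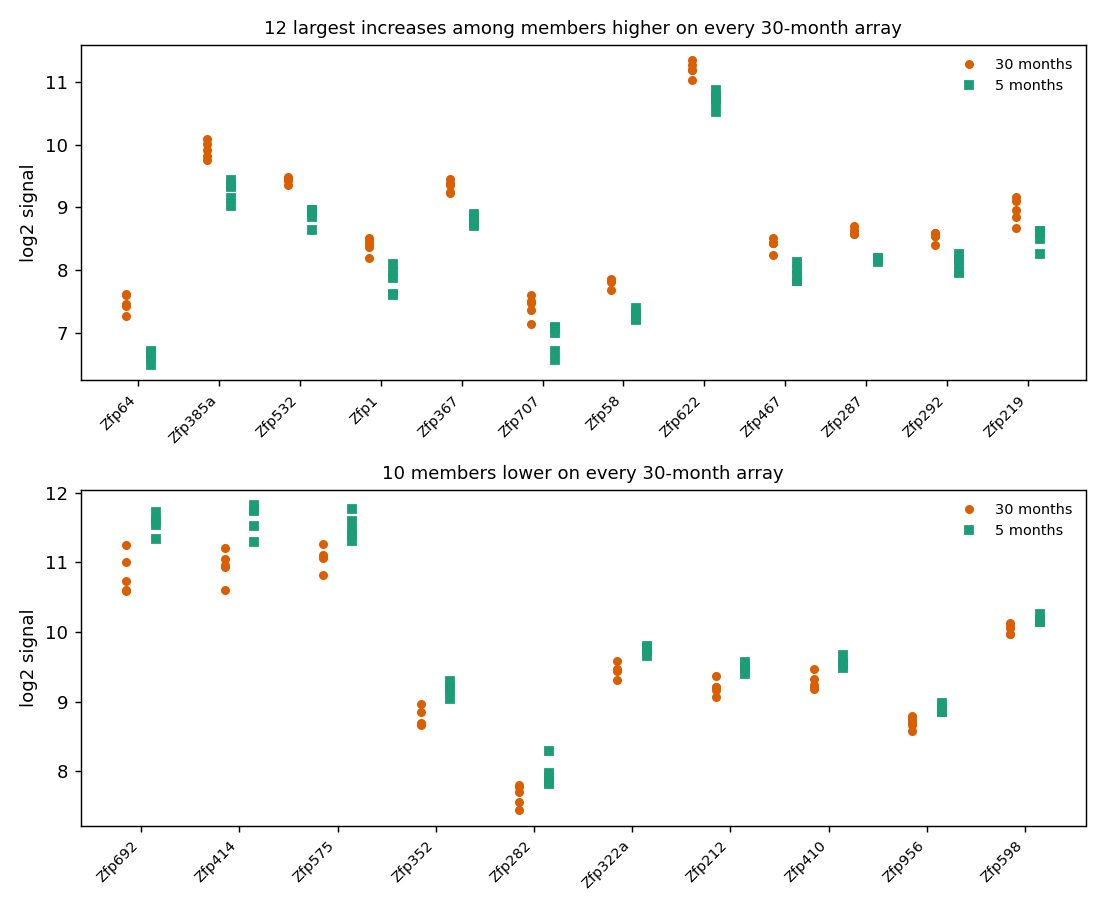
Log2 signal of each array for the 12 largest increases among higher members without overlap (upper panel) and the 10 lower members without overlap (lower panel), 30-month mice as circles on the left and 5-month mice as squares on the right of each gene. The 22 genes were chosen without overlap of the ages, with the widest gap for Zfp64 and the narrowest for Zfp598.

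By role, the members acting on RNA and the ribosome went both ways. All 11 were tested, 5 rose, 1 fell and 5 were not called, beside 34.0% higher and 12.3% lower over all genes tested. Their median change was -0.04. With the deposited scaling the higher ones were Zfp385a, Zfp622, Zfp346, Zfp593 and Zfp106, and the lower one Zfp598. Zfp346, which binds double-stranded RNA, had signals of 977, 961, 801, 971 and 852 in the 30-month mice, against 717, 716, 678, 775 and 639.8 in the 5-month mice. Its ages did not overlap, with a change of 0.37 ± 0.07 (SE), adjusted p = 0.00117. Zfp593, a factor of large ribosomal subunit export by its yeast counterpart, had signals of 223, 246, 186, 244 and 195 in the 30-month mice, against 197, 168, 171, 177 and 162 in the 5-month mice, and old mice 4 and 6 lay within the young range. It changed by 0.32 ± 0.09 (SE), adjusted p = 0.0141, and Zfp106, an RNA-binding protein needed for motor neurons and muscle in the mouse, by 0.21 ± 0.06 (SE), adjusted p = 0.0107. Zfp106 lost its call after quantile normalization (0.09, adjusted p = 0.188), and both lost theirs with equal medians over the genes tested, at adjusted p of 0.056 for Zfp593 and 0.115 for Zfp106. Zfp36, the RNA-destabilizing protein tristetraprolin, ranged from 131 to 335 in the 30-month mice, against 223 to 368 in the 5-month mice, and was not called (-0.30, adjusted p = 0.238). Quantile normalization gave 4 higher and 3 lower members of this list, beside 22.9% and 20.3% over all genes, with a median of -0.15.

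Among members with a role in the nervous system and glia, 11 of 14 were tested, 4 rose, 1 fell and 6 were not called. The shares over all genes tested were 34.0% higher and 12.3% lower. The median change of the list was 0.17. It became 0.08 after quantile normalization (3 higher and 1 lower, beside 22.9% and 20.3% over all genes). With equal medians over the genes tested it was 0.07 (3 higher and 2 lower, beside 21.2% and 23.9% over all genes). Zfp365, which binds the scaffold protein Disc1, had signals of 1119, 908, 902, 1099 and 883 in the 30-month mice, against 791, 851, 809, 730.2 and 938 in the 5-month mice. Old mice 3, 4 and 6 lay below the highest young mouse, and the change was 0.25 ± 0.09 (SE), adjusted p = 0.0285. It lost its call in 5 of the 10 fits without 1 array, with adjusted p of up to 0.0779, and after quantile normalization (0.12, adjusted p = 0.313). Zfp335, needed by mouse neural progenitors, had signals of 455, 403, 475, 430.4 and 436 in the 30-month mice, against 384, 339, 353, 387 and 320.1 in the 5-month mice. These did not overlap, and the change was 0.30 ± 0.07 (SE), adjusted p = 0.00322. Zfp385b, a relative of Zfp385a, went the other way, with 1231, 898, 955, 914 and 749 in the 30-month mice, against 1211, 1213, 1288, 1058 and 1164 in the 5-month mice. Here old mouse 2 lay within the young range, and the change was -0.34 ± 0.10 (SE), adjusted p = 0.0173. With its probe sets averaged Zfp385b was not called (-0.14, adjusted p = 0.0713). Zfp521, Zfp462, Zfp703, Zfp503, Zfp423 and Zfp804a were not called, at adjusted p of 0.0545 to 0.421. Of these, Zfp462 passed the test under 7 alternatives, Zfp703 under 4 and Zfp503 under 3, each higher, and Zfp521 passed it under 4, lower. Zfp804a, at 0.10, passed it in the fit that left out old mouse 6 (0.19, adjusted p = 0.049).

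The KRAB proteins known for imprinting and retroelement repression were few above the filter, with 3 of 6 tested. Zfp809, which silences murine leukaemia virus elements, had signals of 322, 308, 344, 314 and 300.2 in the 30-month mice, against 218, 232, 251, 259.7 and 239 in the 5-month mice. All old mice were above all young ones, with a change of 0.41 ± 0.07 (SE), adjusted p = 0.00039. Zfp445, which with Zfp57 keeps imprinted methylation, had signals of 3199.6, 3247, 2934, 3226 and 3422 in the 30-month mice, against 3591, 3885, 3287, 3567 and 3948 in the 5-month mice. Old mouse 6 exceeded the lowest young mouse, and the change was -0.19 ± 0.06 (SE), adjusted p = 0.0134. Zfp57 itself was not called (0.02, adjusted p = 0.893), and its overlapping signals were 144, 139.6, 164, 134 and 179 in the 30-month mice, against 147, 167, 137, 155 and 141 in the 5-month mice. Zfp568, Zfp932 and Zfp708 did not pass the filter.

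Both members listed for ubiquitin or SUMO transfer rose, beside 34.0% higher and 12.3% lower over all genes tested. Zfp598, a ubiquitin ligase counted above with the RNA members, fell (-0.14, adjusted p = 0.0438 in limma). Zfp91, a ubiquitin ligase, had signals of 1279, 1247, 1223, 1244 and 1219 in the 30-month mice, against 1121, 1101, 1084, 1129 and 1006 in the 5-month mice, and Zfp451, a SUMO ligase, had signals of 724, 693, 666, 723 and 812 in the 30-month mice, against 607, 599, 516, 600.2 and 543 in the 5-month mice. Neither gene's ages overlapped, and the changes were 0.19 ± 0.05 (SE), adjusted p = 0.00564 for Zfp91 and 0.34 ± 0.07 (SE), adjusted p = 0.00155 for Zfp451. The call of Zfp91 was lost after quantile normalization (0.06, adjusted p = 0.304), while that of Zfp451 was kept.

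Among broadly expressed transcription and chromatin factors 12 of 14 were tested, 4 rose, 2 fell and 6 were not called. The shares over all genes tested were 34.0% higher and 12.3% lower, and 22.9% and 20.3% after quantile normalization. The median change of the list was 0.04 with the deposited scaling and -0.07 after quantile normalization, which gave 2 higher and 5 lower. Besides Zfp532 and Zfp219, Zfp281, a pluripotency factor in mouse stem cells, changed by 0.26 ± 0.07 (SE), adjusted p = 0.00595 and Zfp639 by 0.22 ± 0.05 (SE), adjusted p = 0.00374. The calls of Zfp281 and Zfp639 were lost after quantile normalization (adjusted p of 0.0747 and 0.116), and that of Zfp281 also with its probe sets averaged (-0.05, adjusted p = 0.605). The lower members of this list were Zfp609 and Zfp410.

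Zfp410 is known in mouse and human cells as an activator of Chd4, the remodeller of the NuRD complex, through clusters of its element at that gene. Zfp410 had signals of 709.6, 587, 582, 639 and 605 in the 30-month mice, against 717, 749.9, 745, 819 and 735 in the 5-month mice. Old mouse 2 came within reach of the lowest young mouse without overlap, and the change was -0.27 ± 0.07 (SE), adjusted p = 0.00424 in limma. Chd4 had signals of 1405, 1263, 1229, 1207 and 1139 in the 30-month mice, against 1480.1, 1489, 1560.0, 1489.8 and 1641 in the 5-month mice. Its ages were separate as well, and the change was -0.30 ± 0.06 (SE), adjusted p = 0.0014. The other probe set of Zfp410, with signals of 456, 444, 454, 471 and 529.9 in the 30-month mice, against 556, 487, 549, 450.3 and 537 in the 5-month mice, overlapped between ages and was not called in a fit of all tested probe sets (-0.13, adjusted p = 0.185). The probe set behind the call ends in s_at, so its probes can match more than 1 transcript, and when such probe sets were left out Zfp410 was not called. The other 2 tested probe sets of Chd4 were not called either, with changes of -0.01 and 0.08. Whether the decreases of Zfp410 and Chd4 are linked was not tested.

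**Figure D4:**
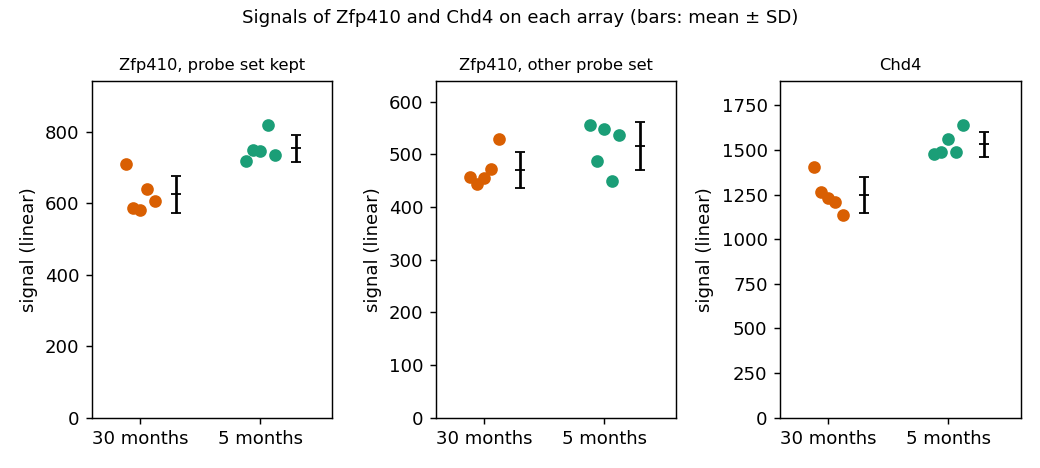
Signals of both Zfp410 probe sets and of the kept Chd4 probe set on each array, 30-month mice left and 5-month mice right, with the mean and SD as bars, on linear axes from 0. The kept probe sets of Zfp410 and Chd4 are lower in every old mouse than in any young mouse, and the other Zfp410 probe set overlaps.

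The sequence before the first RefSeq start of Chd4 holds this element 3 times, and it is shown because Chd4 is a known target of Zfp410. It covers chr6:125095731-125095980 on the plus strand of GRCm38.p6, from RefSeq, with the letters CCCATAATA in either orientation in capitals.
Chd4: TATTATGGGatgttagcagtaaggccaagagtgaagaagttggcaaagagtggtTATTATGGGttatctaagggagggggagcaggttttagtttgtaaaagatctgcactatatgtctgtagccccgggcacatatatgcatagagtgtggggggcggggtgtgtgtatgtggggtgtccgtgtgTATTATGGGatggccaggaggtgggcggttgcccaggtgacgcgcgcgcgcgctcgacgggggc
The element was present before 0.107% of all 27025 genes with a promoter window of 300 bases, counted on both strands. Among members with a window it occurred in 1 of 188, Zfp37, which was not called (0.13, adjusted p = 0.133). Of the other genes tested, Chd4 included, 8 of 9372 held it. A match is a description of the letters and not a measured binding site.

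A second known element was more frequent before members than before other genes. The letters ACTACAATT, the core of the element bound by Zfp143 (also called Staf), occurred in 6 of 188 members with a window (3.19%) and in 70 of 9372 other genes tested (0.747%) on either strand. No member held both this and the Zfp410 element, and Zfp180 also held the ETS element named below. The Zfp143 element occurred in 3 of 66 higher members (4.55%) and 1 of 19 lower members (5.26%). Beside these stood 0.756% of all higher and 0.866% of all lower genes, and 46.3% of all genes tested were called in either direction. The shares describe promoters and were not tested against the age changes. The windows around 4 of the 6 matches are shown because these members were called, with the match in capitals and each sequence given along the strand of its gene. Zfp1 lies on chr8, Zfp58 on chr13, Zfp180 on chr7 and Zfp692 on chr11 of GRCm38.p6, from RefSeq, at chr8:111643404-111643442, chr13:67500526-67500566, chr7:24081861-24081896 and chr11:58307005-58307045, on the minus strand for Zfp58 and on the plus strand for the others.
Zfp1: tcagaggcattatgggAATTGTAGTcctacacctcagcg
Zfp58: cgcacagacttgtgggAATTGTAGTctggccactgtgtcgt
Zfp180: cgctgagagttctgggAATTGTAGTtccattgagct
Zfp692: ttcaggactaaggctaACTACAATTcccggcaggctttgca
In Zfp1, Zfp58 and Zfp180 the element reads in the same orientation, and the line of Zfp692 shows the opposite strand of it. Zfp1 had signals of 344, 354, 292, 367 and 333 in the 30-month mice, against 196, 234, 198, 250.2 and 274 in the 5-month mice. Zfp58 had signals of 230.1, 207, 225, 230.3 and 232 in the 30-month mice, against 169.8, 158, 150.0, 160.4 and 148 in the 5-month mice. In Zfp1 and Zfp58 all old arrays lay above all young ones, at 0.56 ± 0.10 SE, adjusted p = 0.000605 for Zfp1 and 0.52 ± 0.07 SE, adjusted p = 9.76e-05 for Zfp58. Zfp180 rose too (0.37 ± 0.09 SE, adjusted p = 0.0054), Zfp692 fell, and Zfp93 and Zfp128 were not called, at 0.08 and 0.01. Zfp143 itself lay below the filter, and in a fit of all genes without a filter its s_at probe set rose by 0.79 ± 0.11 (SE), adjusted p = 0.000394.

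The base composition of the promoter windows is a further property that did not choose the members. A RefSeq window was found for 188 of the 229 members (82.1%). Their median share of G and C was 57.7%, against 61.0% in the 9372 other genes tested with a window, and the median number of CpG pairs 17 against 21. The called groups were close to each other, at 58.7% in higher and 57.7% in lower members. The ETS element CCGGAAGT, searched on both strands, occurred in 21 of 188 members (11.2%) and in 801 of 9372 other genes (8.55%). It was found in 11 of 66 higher members (16.7%) and in 0 of 19 lower members, beside 10.1% of all higher and 8.05% of all lower genes. The NRF1 element GCATGCGC occurred in 15 of 188 members (7.98%) and in 549 of the other genes (5.86%), with 7.58% in higher and 5.26% in lower members, beside 5.81% of all higher and 4.24% of all lower genes. These shares describe the windows and were not tested.

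Many Zfp genes lie in clusters, where related copies stand side by side. By RefSeq gene order, 107 of 227 placed members stood in runs of adjacent Zfp genes and 120 stood alone. In runs, 36 were higher (33.6%) and 8 lower (7.48%), with a median change of 0.09. Alone, 43 were higher (35.8%) and 15 lower (12.5%), with a median of 0.11. Of 30 runs with several members, 17 held calls in the higher direction alone, 2 in the lower direction alone, 3 in both and 8 held no call. Over all genes tested 34.0% were higher and 12.3% lower, and whether the genes of a run moved together was not tested.

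The 3 runs with both directions were picked after their values were seen, as were the further genes named with them. In one, Zfp398 and Zfp777 rose by 0.36 and 0.31, Zfp282, Zfp212 and Zfp956 fell, and Zfp746 was not called (0.11, adjusted p = 0.364). In the next, Zfp672 rose (0.39 ± 0.06 SE, adjusted p = 0.000301) beside Zfp692, whose decrease is given above. In the last, Zfp707 rose beside Zfp623, which fell with -0.30 ± 0.10 (SE), adjusted p = 0.028. Zfp397, Zfp35 and Zfp24, which also stand in a row, rose on their kept probe sets, with 0.35, 0.28 and 0.43 on the log2 scale, but 2 other probe sets of Zfp24 fell and with its probe sets averaged it was not called (0.01, adjusted p = 0.949).

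In 71 members several probe sets passed the filter and could be compared. They were tested in a separate limma fit of all 22518 probe sets above the filter, in which 29.1% of the probe sets were higher and 11.8% lower. All tested probe sets were called higher in 5 members, Zfp260, Zfp329, Zfp511, Zfp617 and Zfp871, and in no member were all called lower. In 37 members some were called, in 1 direction, and in 25 none were. In 4 members (5.63%) probe sets were called in opposite directions, compared with 468 of 4953 genes with several probe sets (9.45%). For these 4 genes a direction holds for a probe set and not for the gene.

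Zfp64 carried the largest increase on the probe set given above, while a second probe set had signals of 120.0, 113, 98.6, 130.3 and 99.1 in the 30-month mice, against 133, 131, 153, 146 and 136 in the 5-month mice. That one was lower in every old mouse than in any young one, with a change of -0.32 ± 0.10 (SE), adjusted p = 0.0199 in limma. The remaining one was not called (-0.29, adjusted p = 0.137). Zfp24, a factor that oligodendrocytes need to form myelin, was tested on 5 probe sets. The kept one had 629, 667, 608, 651 and 671 in the 30-month mice, against 506, 464, 503, 491 and 436 in the 5-month mice, and rose without overlap (0.43 ± 0.06 SE, adjusted p = 0.000186). A second one had 485, 454, 463, 510.0 and 506 in the 30-month mice, against 570.0, 515, 581, 698 and 588 in the 5-month mice. It lay lower in every old mouse than in any young one (-0.28 ± 0.08 SE, adjusted p = 0.011), and another also fell (-0.34, adjusted p = 0.0137).

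Zfp655 rose on its kept probe set (0.41 ± 0.07 SE, adjusted p = 0.000498) and fell on both others (-0.27, adjusted p = 0.0077, and -0.33, adjusted p = 0.0385). Zfp638, which binds RNA and DNA, was not called on its kept probe set (-0.20, adjusted p = 0.374). Of its other probe sets 1 rose (0.23, adjusted p = 0.0108) and 1 fell (-0.53, adjusted p = 0.00565). The kept probe set of 25 members was an s_at or x_at one.

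**Figure D5:**
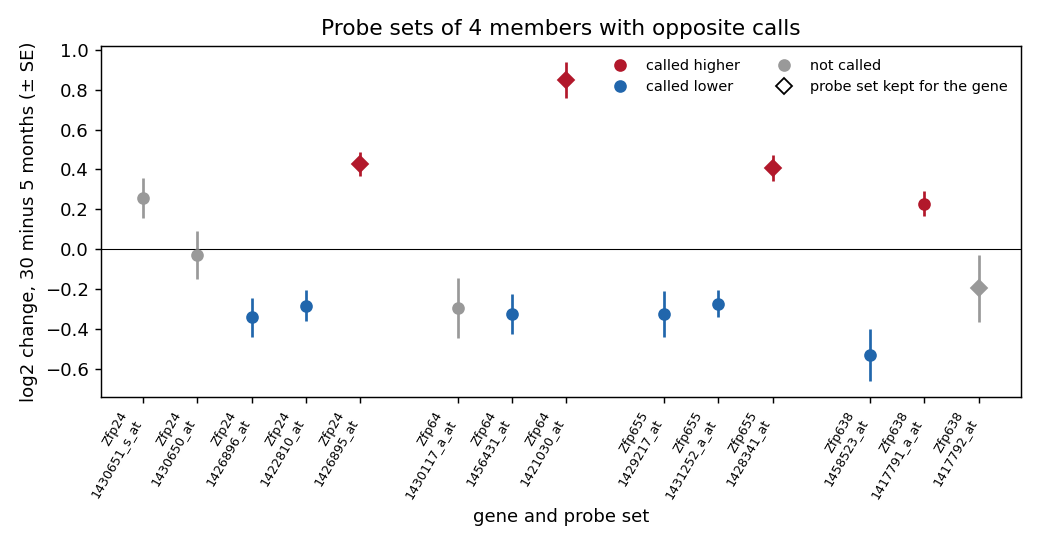
Log2 change with standard error, 30 months minus 5 months, of each tested probe set of the 4 members called in opposite directions, with diamonds for the probe set kept for the gene. Zfp24, Zfp64 and Zfp655 each rose on the kept probe set and fell on others, and the kept probe set of Zfp638 was not called.

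The partners through which KRAB proteins repress also moved both ways. Of 18 co-repressor and HUSH genes, 17 were tested, 7 rose, 2 fell and 8 were not called, with a median change of 0.13. The shares over all genes tested were 34.0% higher and 12.3% lower. Trim28, which KRAB domains bind, had signals of 2199, 2181, 2486, 2245 and 1977 in the 30-month mice, against 2058, 1933, 2080.0, 2205 and 1826 in the 5-month mice. Its ages overlapped and it was not called (0.13, adjusted p = 0.107), nor was the methyltransferase Setdb1 (-0.07, adjusted p = 0.295). Pphln1, a subunit of the HUSH silencing complex, rose with 991, 934, 879, 946 and 854 in the 30-month mice, against 665, 701, 695, 735 and 689.9 in the 5-month mice and a change of 0.40 ± 0.06 (SE), adjusted p = 0.000115. Atf7ip, the partner of Setdb1, rose (0.48 ± 0.10 SE, adjusted p = 0.00189), as did the heterochromatin protein gene Cbx1 (0.30 ± 0.07 SE, adjusted p = 0.00283). Cbx3 fell beside Chd4 (-0.22 ± 0.08 SE, adjusted p = 0.037). After quantile normalization 3 of these partners were higher and 3 lower, beside 22.9% and 20.3% over all genes, with a median of 0.03. Cbx1 was among those that lost their call (0.17, adjusted p = 0.06 in limma), and Setdb1 was then called lower (-0.18, adjusted p = 0.0295).

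Other families of C2H2 genes also moved both ways. The shares over all genes tested were 34.0% higher and 12.3% lower. They were 22.9% and 20.3% after quantile normalization, and 21.2% and 23.9% with equal medians over the genes tested. Of 20 Klf and Sp genes tested, 8 rose and 2 fell, with a median change of 0.14 that became 0.09 after quantile normalization (5 higher and 3 lower) and 0.04 with equal medians over the genes tested (5 higher and 5 lower). Of 33 Zbtb-named genes, 8 rose and 6 fell, with a median of 0.02 that became -0.04 after quantile normalization. Of 12 Zkscan- and Zscan-named genes, 2 rose and 3 fell, with a median of 0.00 that became -0.08.

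Below the filter, 14 of the 95 Zfp genes were called when every gene was fitted without it, 11 higher and 3 lower. In that fit 23.2% of all genes were higher and 9.81% lower, but most of those genes lay above the filter. The share over all genes below the filter was not counted, so the 95 genes have no like background here. Zfp54 changed by 0.88 ± 0.17 (SE), adjusted p = 0.00275 in limma, and Zfp608, a relative of Zfp609, by -0.76 ± 0.16 (SE), adjusted p = 0.00438. These were picked for the size of their change, at signals under the median of the array.

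In the authors' deposited table, whose marks ask for a lower bound of the fold above 1.2 and a p-value of at most 0.1, 18 members were marked higher and 3 lower on their kept probe sets. Over the kept probe sets of all genes tested, the authors' deposited table marked 9.74% higher and 2.42% lower. In the authors' deposited table a negative fold is lower at 30 months, and the lower members marked were Zfp692 (-1.6), Zfp414 (-1.57) and Zfp575 (-1.36). Zfp609 stood at -1.65 in the authors' deposited table without a mark, with a lower bound of -1.19, and Zfp64 had a fold of 1.81.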

How the data were processed

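Each of the 10 mice had 1 array. The authors deposited linear intensities per probe set, per the file headers, and the submitters' processing notes name GCOS without a version or role. Background correction, probe summary, scaling and genome build were not given in the sources used here. A second deposited table held the same intensities, with a signed fold score, its lower bound and a p-value per probe set by the authors, per the file headers. Its column names carry a prefix on the 30-month arrays alone, and no source used here explains it, so what it marks and age cannot be told apart. Detection calls, protein domains and finger counts were not analysed here.

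Signals under 1 (55 cells) were set to 1 and log2 was taken. Probe sets were named by gene identifier through a RefSeq gene table of GRCm38.p6, 36299 of them to 1 gene. Of each gene the probe set with the highest mean above the filter was kept. Ages were compared in R 4.3.3 by limma 3.58.1, two-sided and with a variance trend, with Benjamini-Hochberg adjustment over 11963 genes. The fit was tested on simulated data. The number of arrays limits the precision.

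Members, lists and tests were chosen with earlier results of these data known. Named members were the 12 higher and up to 12 lower ones with the largest change and no overlap of ages, tested members of the role lists, those next to the filter and those with opposite probe sets. Called partners were added, up to 4 per list. Other members named are Zfp37, Zfp180, Zfp93, Zfp128, members of runs, those with every probe set called and genes below the filter, chosen after their values were seen. The alternatives covered scaling, filters, probe set choice, thresholds, array weights, symbols, mouse number as a replicate block, and fits without 1 array. Old and young arrays of the same mouse number were not treated as pairs in the main fit. Over numbers 2 to 5 the correlations of their deviations were -0.33, -0.04, 0.08 and 0.11, without a common sign. Whether arrays of the same number share a batch was not tested. Figures used matplotlib 3.10.9, and tables pandas 2.3.3 with numpy 2.4.6 under Python 3.11.15.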

Additional observations from a re-analysis of the deposited data

Results flagged for a closer look

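In 116 groups of 5 arrays, the 57 named members and Chd4 at each age, 5 held 1 array far from the other 4, with a gap to its neighbour above 0.71 of the group's range. Chance alone gives about 1 such group in 20. Zfp58 was lowest in 30-month mouse 3, at a signal of 207 where the other old mice had 225 to 232. The same mouse was lowest for Zfp292, at 340.3 against 373 to 387 in the others. Zfp326 was lowest in 30-month mouse 4, at 657 against 776 to 819, and Zfp804a in 30-month mouse 6, at 328 against 429.7 to 469. Without that array Zfp804a was called higher (0.19, adjusted p = 0.049 in limma, against 0.10 and 0.421 with it). Zfp598 was highest in 5-month mouse 4, at 1223 against 1132 to 1155 in the other young mice. Its small decrease was not called without that array (-0.12, adjusted p = 0.105 in limma). The call was also lost without most other single arrays, such as 30-month mouse 5 (-0.12, adjusted p = 0.114 in limma).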

How the results depend on the processing

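Quantile normalization gave 53 higher and 38 lower members and a median change of 0.042, and equal medians over the genes tested, chosen after seeing the data, gave 40 higher, 45 lower and a median of 0.0024. Equal array medians gave 85 higher and 22 lower. Stricter settings left fewer genes or calls by construction. A filter at the 75th percentile kept 79 members, 35 of them higher. Symbols of the deposited table found 73 members, 26 higher and 7 lower. At an adjusted p under 0.01 there were 48 higher and 11 lower members, and 18 higher and 3 lower ones carried the authors' deposited mark. With the mouse number as a replicate block over the 8 mice that share numbers there were 60 higher and 14 lower members, against 73 and 16 over the same mice without the block. Leaving out 1 array at a time gave 65 to 82 higher and 16 to 29 lower members, with a median change of 0.09 to 0.11. The lowest count of lower members came without 5-month mouse 4, and 17 were called without 30-month mouse 3. The cause of these shifts was not tested. For the scalings and the authors' mark the shares over all genes are given above. For the other settings they were not counted, so the members' counts there cannot be set against all genes.

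Of the 38 named members that were called, 18 kept their call at the 0.05 threshold under every alternative fit in which they were tested: Zfp1, Zfp58, Zfp212, Zfp219, Zfp287, Zfp322a, Zfp335, Zfp346, Zfp352, Zfp367, Zfp385a, Zfp414, Zfp445, Zfp451, Zfp575, Zfp609, Zfp692 and Zfp809. Of these, only Zfp346, Zfp445 and Zfp451 had several probe sets tested. The others had 1, so averaging of probe sets could not change their values and was no check of them. Reversed signs were found in called members with other probe sets: Zfp467 at -0.11 without s_at and x_at probe sets, and Zfp281 at -0.0498 and Zfp655 at -0.0636 with probe sets averaged. Averaging left Zfp467 called higher, at 0.26. Of the named members not called, 13 passed the test under at least 1 alternative. Averaging also turned Zfp207 to 0.0757 and Zfp592 to 0.11, which were not called. The remaining reversals were of members near 0. Zfp57 was at -0.0836 with equal medians over the genes tested, at -0.0815 with array weights, at -0.0478 with and without the replicate block, and ranged from -0.0428 to 0.0622 without 1 array. Zfp566 was at 0.0065 with equal array medians, 0.0594 with array weights, 0.0636 with and without the block, and ranged from -0.0917 to 0.0315 without 1 array. Quantile normalization put Zfp148 at -0.0094 and Zfp384 at -0.0128, equal medians over the genes tested put Zfp804a at -0.0021, and Zfp326 ranged from -0.0688 to 0.0109 without 1 array, the highest without 30-month mouse 4. Depth cannot be given for arrays, and without detection calls a probe set near the filter may be close to background.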
